A study of Mus musculus with 8 samples.

Results

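The kallikreins of skin shedding are secreted serine proteases that cut the junctions between dead surface cells, and Spink5 encodes LEKTI, the inhibitor that holds them back. The set described here holds 8 kallikrein genes (Klk5, Klk6, Klk7, Klk8, Klk10, Klk11, Klk13 and Klk14) and Spink5, 9 of the 34790 gene names measured. The 9 genes were picked by name for their known part in shedding, and each was read by the single probe, spotted once, that carries its name. No other probe on the array shares a run of 20 bases with any of the 9 probes.

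RNA came from the adipose fraction of the dorsal skin of female C57BL/6 mice, an inbred strain, and the labels name no altered allele. Plucked skin was sampled once at 12 h and once on each of days 1, 2, 4, 6, 10 and 50 after a wax had pulled the hairs out, against skin that was only shaved. The series' design text describes an earlier waxing that brought the follicles of the back into step, and does not say whether the shaved control also had it. By the labels the mice were 10 weeks old in the control and through day 4, 11 weeks on days 6 and 10, and 17 weeks on day 50, while the treatment text puts plucking at 7 to 8 weeks, and no source used here explains the difference. Age and time after plucking cannot be told apart on day 6, day 10 and day 50. The labels name the material adipose cells, and the design text adds dermis. Even so, 19 of 22 genes of the granular and cornified layer of the epidermis were well above background on all 8 arrays. How much epidermis each sample held was not measured, and its part in the levels below was not tested. In a bulk sample like this, fewer cells of a type and less RNA per cell cannot be told apart.

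Each of the 8 conditions had 1 Cy3 array, all on 1 slide, so no difference carries a test or a p-value. A level below is the log2 of a probe's signal over the 75th percentile of its array, and levels of different genes are not comparable. A gene was counted as higher or lower at a time when it stood at least 2-fold from the shaved control with the brighter of both arrays well above background. The error model of the extraction software gave a median SD of 0.145 on the log2 scale for a member's level where it was well above background, with a range from 0.144 to 0.317. Its multiplicative term was set to 0.1 on every array per the file headers, so for bright spots the SD is mainly this setting and not an observed spread. The median SD of repeat spots of a probe was 0.055 to 0.088 by array. The error model, called technical error below, covers the measurement alone, and how far mice differ from each other is not known. The share of spots well above background ran from 72.9% to 81.2% by array. The 12 h, day 1, day 2 and day 50 arrays lay in row 1 of the slide and the control, day 4, day 6 and day 10 arrays in row 2.

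Shedding, or desquamation, is the last step of epidermal life. Granular cells release kallikreins as inactive precursors into the space between cells, where trypsin-like members such as KLK5 activate themselves and the chymotrypsin-like KLK7, and both then cut corneodesmosin, desmoglein 1 and desmocollin 1 in the corneodesmosomes. LEKTI binds these proteases and releases them as the surface grows acid. In humans, loss of SPINK5 causes Netherton syndrome, with premature shedding and a leaky barrier, and in mice loss of Spink5 causes early breakage of the same junctions.

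The 8 kallikrein genes lie between 43680880 and 43851181 on mouse chromosome 7 of GRCm38.p6, all on the + strand. RefSeq promoters of that build, covering 250 bases before and 50 after a transcript start, were found for all 8, as 10 entries. Those of Klk5 (chr7:43842019-43842318, + strand) and Klk7 (chr7:43811044-43811343, + strand) are shown because both genes were high from 12 h to day 6, and those of Klk10 (chr7:43780804-43781103, + strand) and Klk13 (chr7:43712317-43712616, + strand) because both peaked on the day 4 array. Capitals mark CACCC, the letters bound by Krüppel-like factors, or the same letters on the other strand, GGGTG.
Klk5: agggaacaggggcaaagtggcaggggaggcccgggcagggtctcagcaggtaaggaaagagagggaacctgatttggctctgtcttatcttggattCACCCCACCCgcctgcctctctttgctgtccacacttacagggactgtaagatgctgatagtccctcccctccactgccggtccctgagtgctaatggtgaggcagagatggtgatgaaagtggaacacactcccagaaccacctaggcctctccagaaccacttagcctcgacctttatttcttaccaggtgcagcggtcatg
Klk7: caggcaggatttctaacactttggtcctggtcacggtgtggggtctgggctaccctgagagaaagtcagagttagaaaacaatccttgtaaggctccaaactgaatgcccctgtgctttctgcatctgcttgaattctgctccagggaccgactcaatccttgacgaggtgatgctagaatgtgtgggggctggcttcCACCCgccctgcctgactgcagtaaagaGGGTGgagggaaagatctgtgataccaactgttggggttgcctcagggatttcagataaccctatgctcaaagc
Klk10: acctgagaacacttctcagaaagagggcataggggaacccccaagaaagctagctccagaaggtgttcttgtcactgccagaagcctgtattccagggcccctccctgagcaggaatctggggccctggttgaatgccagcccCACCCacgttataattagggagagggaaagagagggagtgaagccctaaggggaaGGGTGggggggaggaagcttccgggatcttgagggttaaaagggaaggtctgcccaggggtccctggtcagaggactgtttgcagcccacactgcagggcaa
Klk13: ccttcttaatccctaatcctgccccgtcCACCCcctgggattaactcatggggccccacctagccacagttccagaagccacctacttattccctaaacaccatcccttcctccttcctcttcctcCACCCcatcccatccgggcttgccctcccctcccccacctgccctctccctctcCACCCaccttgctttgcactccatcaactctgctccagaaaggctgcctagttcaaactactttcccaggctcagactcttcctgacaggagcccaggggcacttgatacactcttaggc
CACCC stood in 7 of the 10 entries and in at least 1 entry of 7 of the 8 genes. It is a common word, found in 57.52% of all 32851 RefSeq promoters of this length. In Klk5 the 2 matches began at -154 and -149 from the start, and in Klk7 at -52 and -24. The Klk5 window belongs to a transcript that starts inside the gene, since the gene itself begins at 43834157. The same holds for the Klk14 window, which begins at 43690168 in a gene that begins at 43680880. Also searched on both strands were TATAAA (13.62% of all promoters), TGANTCA of AP-1 (7.81%), AGGTCA of nuclear receptors (16.26%) and AACCGG of Grainyhead-like factors (6.83%), none of which contains CACCC or lies within it. None of the 10 entries held them, which says only that these letters are not in these windows.

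Between 3 and 6 members of the set were at least 2-fold higher in plucked than in shaved skin on each array up to day 6, and none was from day 10. Of the 9 members measured at 12 h, 6 were higher and 0 lower, where 3.85% of all genes were higher and 3.32% lower. On day 1, 5 of 8 measured members were higher and 0 lower, against 2.67% and 3.21% of all genes. On day 2, 3 of 8 were higher and 0 lower, against 2.56% and 3.57%. On the day 4 array, which had the most calls of all genes, 5 of 8 were higher and 0 lower, against 5.86% and 6.58%. On day 6, 3 of 9 were higher and 1 was lower, against 4.18% and 2.09%. By day 10, 0 of 8 were higher and 2 were lower, against 3.76% and 2.29%, and on day 50 again 0 of 8 were higher and 2 lower, against 2.72% and 4.4%. The median difference of the measured members was 1.34 at 12 h, 1.59 on day 1, 0.89 on day 2, 2.12 on day 4, 0.08 on day 6, -0.63 on day 10 and -0.51 on day 50 on the log2 scale, while the median of all genes lay between -0.13 and 0.02. All 7 comparisons share the 1 control array. Days 4, 6 and 10 lay in the same slide row as the control. The row of the 12 h, day 1 and day 2 arrays held only the day 50 array as a possible reference, and against it 7 members were at least 2-fold higher at 12 h, 6 on day 1 and 7 on day 2, where 4.9%, 4.0% and 3.59% of all genes were. Klk5, Klk6, Klk7, Klk8, Klk11 and Spink5 were among them each time. On day 50, however, Klk6 (-3.49), Klk7 (-1.03), Klk11 (-0.67) and Spink5 (-0.63) lay below the control, which raises their differences against that array. Klk5 (0.26) and Klk8 (0.67) lay above the control there. Klk6 on days 1 and 2, Spink5 at 12 h and on day 2, and Klk11 and Klk13 on day 2 were not called higher against the control.

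**Figure D1:**
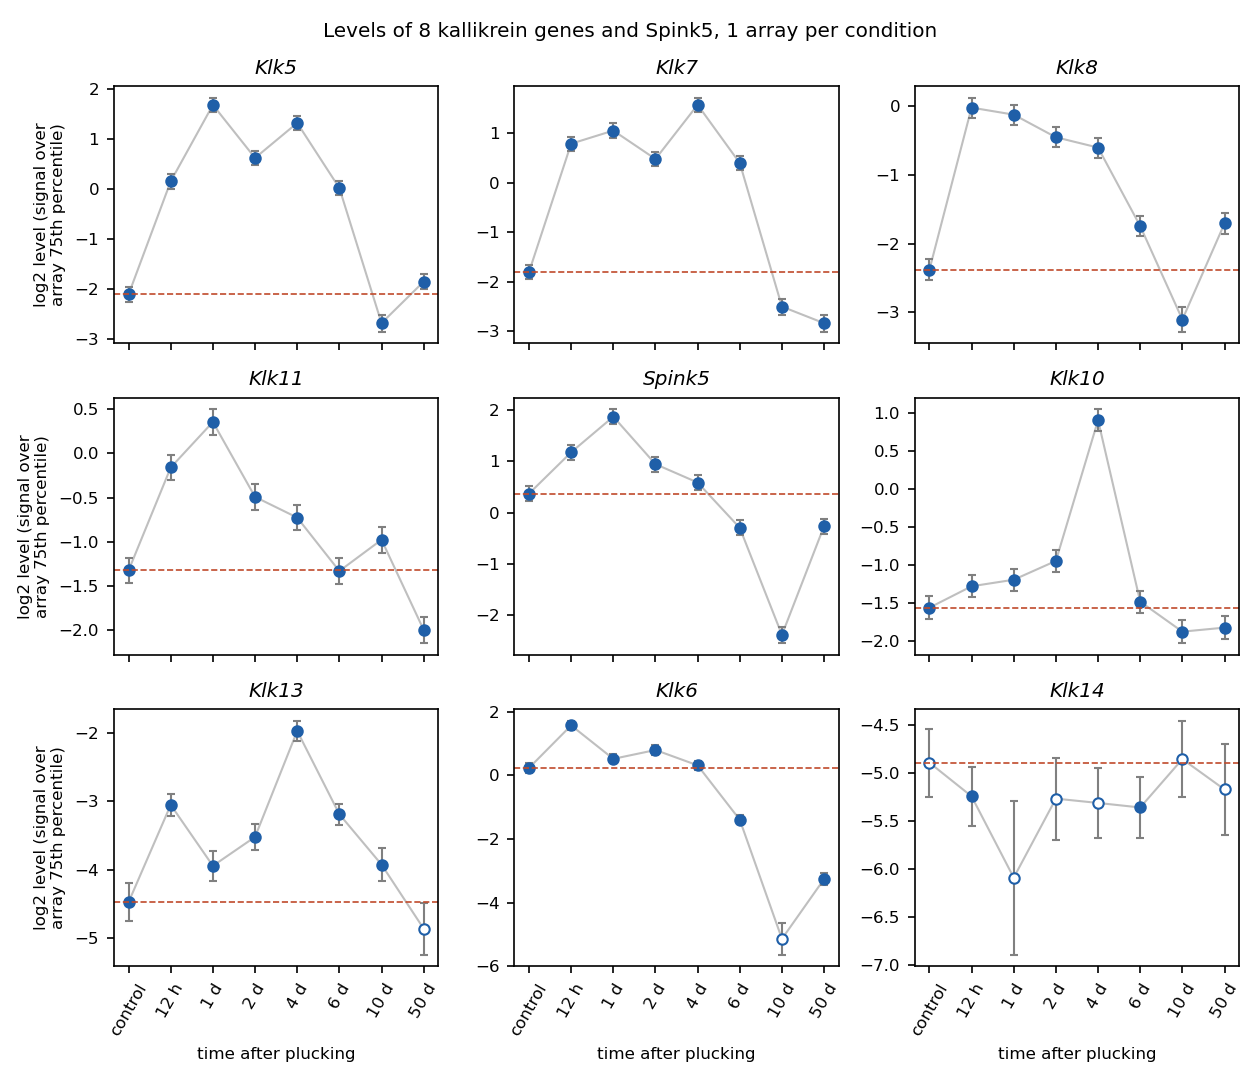
Log2 level (signal over the array's 75th percentile, vertical axis) of each of the 9 genes on the 8 arrays, from the shaved control to day 50 after plucking (h, hours; d, days). Bars are 1 SD of the software's error model, open circles mark values not well above background, and the dashed line is the control's level. Every gene but Klk14 stood above the line at 12 h, Klk10 only by 0.28. Klk10 and Klk13 had their highest value on day 4, and Klk6 was far below the line on day 10 and day 50.

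Klk5, the trypsin-like protease that starts the cascade, had the largest increase of the set. Its log2 level was -2.11 in the shaved control, 0.15 at 12 h, 1.68 on day 1, 0.62 on day 2, 1.32 on day 4, 0.02 on day 6, -2.68 on day 10 and -1.85 on day 50. The arrays from 12 h to day 6 therefore lay well above the control, and the day 10 and day 50 arrays lay near it. Klk5 was 4.78-fold higher at 12 h, 13.8-fold on day 1, 6.61-fold on day 2, 10.7-fold on day 4 and 4.36-fold on day 6. With normexp background correction, an alternative that adds a constant to every signal and so draws folds of dim values toward 1, it was 8.80-fold higher on day 1 and 7.28-fold on day 4. The log2 difference was 3.78 on day 1, with an error-model SD of 0.21, and -0.57 on day 10 and 0.26 on day 50, neither of which reached 2-fold. In the order of levels, the control and day 50, day 6 and 12 h, and day 4 and day 1 were neighbours that lay within 2 SD of the technical error.

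Klk7, the chymotrypsin-like protease that KLK5 activates and that cuts corneodesmosin, followed Klk5 closely but peaked on another array. Its level was -1.80 in the control, 0.79 at 12 h, 1.05 on day 1, 0.48 on day 2, 1.58 on day 4, 0.40 on day 6, -2.50 on day 10 and -2.83 on day 50. From 12 h to day 6 it was between 4.60-fold and 10.4-fold higher than in the control, with the highest value on day 4. On day 10 it differed by -0.70, and on day 50 by -1.03, a 2.05-fold lower level that lies just past the 2-fold line. Klk5 was close to its own control on that array. With quantile normalization or normexp background correction, Klk7 on day 50 was no longer 2-fold lower.

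Klk8 and Klk11 are trypsin-like members that are made in the same upper layers. Klk8, also called neuropsin, cuts substrates of the upper epidermis in mice and was first studied in the brain. Its level was -2.38 in the control, -0.03 at 12 h, -0.13 on day 1, -0.46 on day 2, -0.61 on day 4, -1.75 on day 6, -3.10 on day 10 and -1.71 on day 50. Klk8 had its highest level at 12 h and stood lower at each later array up to day 10, although day 1 and 12 h, day 2 and day 1, and day 4 and day 2 differed by less than 2 SD of the technical error. It was 5.11-fold higher at 12 h and 3.42-fold higher on day 4, and it missed 2-fold on day 6, day 10 and day 50. The log2 level of Klk11 was -1.32 in the control, -0.16 at 12 h, 0.36 on day 1, -0.49 on day 2, -0.73 on day 4, -1.33 on day 6, -0.98 on day 10 and -2.00 on day 50. Its difference was smaller and shorter, with 2.24-fold at 12 h and 3.20-fold on day 1 as the only values past 2-fold.

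Klk10 and Klk13, like Klk7, had their highest level on the day 4 array. Klk10 was past 2-fold on that array alone, and Klk13 also at 12 h and on day 6. Klk10 encodes a kallikrein of epithelia, and KLK13 is a trypsin-like enzyme that in humans is made in skin, mouth and oesophagus. The level of Klk10 was -1.56 in the control, -1.27 at 12 h, -1.19 on day 1, -0.94 on day 2, 0.91 on day 4, -1.48 on day 6, -1.87 on day 10 and -1.82 on day 50. It was 5.51-fold higher on day 4 (a log2 difference of 2.46, error-model SD 0.21), and the other 6 plucked arrays lay between -0.31 and 0.62 of the control. Klk13 was a dim probe, with a level of -4.47 in the control, -3.05 at 12 h, -3.94 on day 1, -3.52 on day 2, -1.97 on day 4, -3.19 on day 6, -3.92 on day 10 and, not well above background, -4.86 on day 50. The day 4 array was 5.66-fold higher than the control, and 12 h and day 6 were 2.68-fold and 2.44-fold higher. The 12 h and day 6 calls of Klk13 were lost with normexp background correction, where its difference at 12 h was 0.48, and on day 4 the gene was then 2.29-fold higher. Both day 4 values rest on 1 array, where the list of hair shaft and inner root sheath genes given below was also far above its control value.

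Klk6, or neurosin, a trypsin-like protease of skin and brain, had the largest decrease of the set. Its level was 0.23 in the control, 1.57 at 12 h, 0.52 on day 1, 0.79 on day 2, 0.31 on day 4, -1.40 on day 6, -5.14 on day 10 and -3.26 on day 50. Only the 12 h array was more than 2-fold higher, at 2.53-fold, and from day 1 to day 4 the gene lay between 0.08 and 0.56 of the control. On day 6 it was 3.09-fold lower. On the day 10 array the probe was not well above background, so it was at least 41.4-fold lower than in the control there. This bound depends on the background correction, since with normexp the same probe was 8.41-fold lower. On day 50, with the probe well above background again, Klk6 was still 11.2-fold lower (a log2 difference of -3.49, SD 0.23), and 4.58-fold lower with normexp. No other member was more than 2.05-fold lower on day 50. Set against the day 50 array instead of the shaved control, Klk6 on day 6 changed sign, with a log2 difference of 1.86.

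For Klk14, which in human studies activates KLK5, the probe was well above background on the 12 h and day 6 arrays only. Its level was -4.89 in the control, -5.24 at 12 h, -6.09 on day 1, -5.27 on day 2, -5.31 on day 4, -5.36 on day 6, -4.85 on day 10 and -5.17 on day 50. Both measured differences, -0.35 at 12 h and -0.47 on day 6, were no larger than their technical SDs of 0.47 and 0.48. A change in Klk14 was not detectable at this signal.

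Spink5, the inhibitor gene, lies on chromosome 18 and not in the kallikrein cluster. Its level was 0.37 in the control, 1.17 at 12 h, 1.87 on day 1, 0.94 on day 2, 0.58 on day 4, -0.30 on day 6, -2.38 on day 10 and -0.26 on day 50. The day 1 array was 2.82-fold higher than the control, the only plucked array past 2-fold in that direction. On day 4 the gene was close to the control (a log2 difference of 0.22, SD 0.20), and on day 6 its difference was -0.67. The day 10 array was 6.72-fold lower (-2.75, SD 0.21) and 4.41-fold lower with normexp, and on day 50 the gene was back within 2-fold, at -0.63. The levels of day 6 and day 50 were not separated by more than 2 SD of the technical error, nor were those of the control and day 4.

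A comparison of change within each gene sets the protease genes against the inhibitor gene without setting 1 probe's brightness against another's. The change of Klk5 lay above that of Spink5 on each of the 7 plucked arrays, on day 10 because Spink5 was further below its control than Klk5 was. The log2 change of Klk5 minus that of Spink5 was 1.45 at 12 h, 2.29 on day 1, 2.15 on day 2, 3.21 on day 4, 2.79 on day 6, 2.18 on day 10 and 0.89 on day 50, with a technical SD of 0.29 to 0.31. For Klk7 the same gap was 1.79, 1.36, 1.71, 3.16, 2.87 and 2.05 from 12 h to day 10, and it was -0.40 on day 50. For both genes the gap was higher on days 4 and 6 than on the other arrays, but the 2 days differed by less than 2 SD of the technical error. For Klk5, day 6 also lay within 2 SD of day 1 and of day 10. On day 4 Spink5 was near its control level, while Klk5 was 10.7-fold and Klk7 10.4-fold above theirs (7.28-fold and 7.66-fold with normexp). Klk8 had a gap between 0.75 and 2.03 on the 7 arrays. Klk11 moved almost with Spink5 up to day 4, with gaps of 0.18 to 0.38. Its gap was 0.66 on day 6, 3.10 on day 10 and -0.04 on day 50. Klk6 had gaps of 0.53 at 12 h, -1.21 on day 1, -0.01 on day 2, -0.13 on day 4, -0.96 on day 6, -2.62 on day 10 and -2.86 on day 50. For Klk10 the gaps from 12 h to day 50 were -0.52, -1.13, 0.04, 2.25, 0.75, 2.43 and 0.37. For the dim Klk13 probe they were 0.62, -0.97, 0.38, 2.29, 1.95, 3.30 and 0.24, the last from a value not well above background. All 7 gaps of a gene share the control array, so they are not independent of each other.

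**Figure D2:**
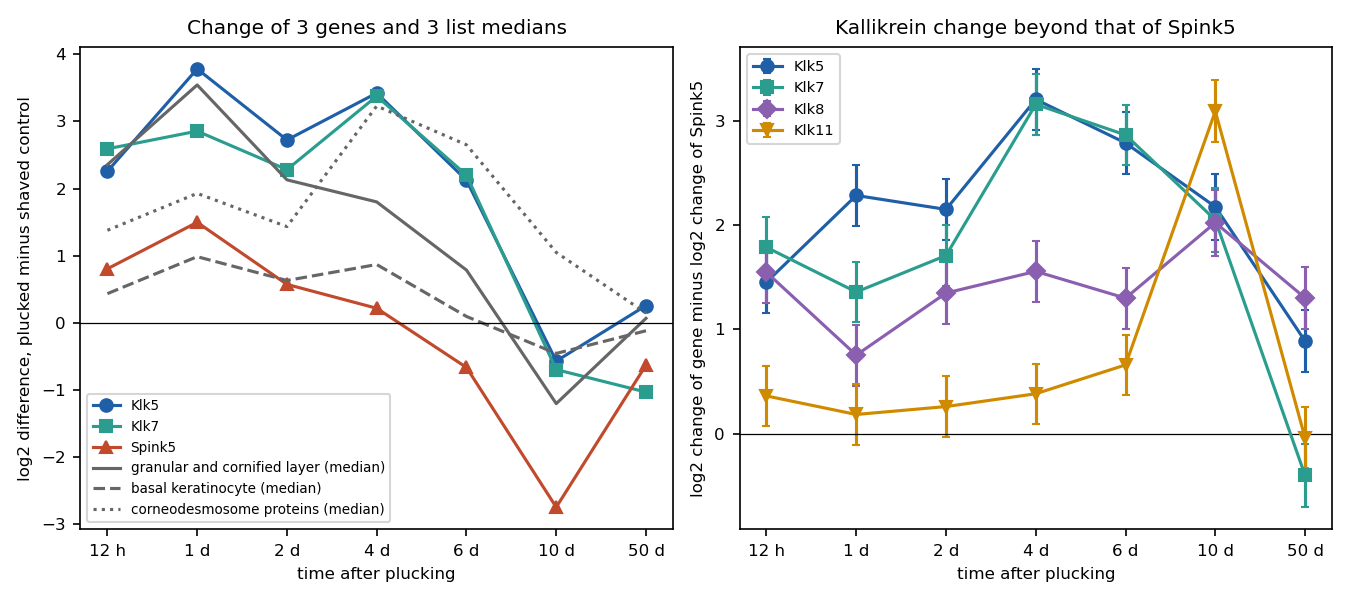
Left, log2 difference from the shaved control (vertical axis) by time after plucking for Klk5, Klk7 and Spink5, with the medians of 3 gene lists in grey. Right, the log2 change of 4 kallikreins minus that of Spink5, with bars of 1 SD of the software's error model. Klk5 and Klk7 were furthest above Spink5 on days 4 and 6, and Klk7 lay below Spink5 on day 50.

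Genes of the layer that makes these proteases were high over the same days. With normexp, of the 298 differences past 2-fold among the other genes taken by the rule for named genes, 269 were smaller, 117 moved by more than 1.5-fold and 68 were no longer past 2-fold. Of 22 granular and cornified layer genes, 19 were well above background on all 8 arrays. Of the 22, 18 were at least 2-fold higher at 12 h, 19 on day 1, 18 on day 2, 19 on day 4 and 9 on day 6, with 0 lower. On day 10, 2 were higher and 11 lower, and on day 50 none was past 2-fold. The median differences were 2.36 at 12 h, 3.54 on day 1, 2.13 on day 2, 1.80 on day 4, 0.79 on day 6, -1.21 on day 10 and 0.07 on day 50. Summed over the list, the signal relative to the array's 75th percentile was 37.7 in the control and ranged from 27.9 on day 10 to 400 on day 1 in plucked skin. Lor, which encodes the cornified envelope protein loricrin, was highest on day 1 (4.35 above the control), with -3.26 on day 10. Flg2, a filaggrin relative, was 3.43 above on day 1 and at least 9.17-fold lower on day 10 (2.33-fold lower with normexp). Of the late cornified envelope genes, Lce1c was 3.79 above and Lce1f 4.78 above on day 1, and both were lower on day 10. The part of this list in the kallikrein levels was not tested.

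Set against the median of that list, the members did not keep 1 common distance. Klk5 lay within 0.24 of the list's change at 12 h and day 1, then 1.62 above it on day 4 and 1.34 above it on day 6. Klk7 was 1.58 and 1.42 above the list at those later times, after a value of -0.69 against it on day 1. Klk8 lay between -0.21 and -0.03 of the list median on days 2, 4 and 6, with -1.29 on day 1. Spink5 was below the list's change on all 7 plucked arrays, with gaps of -1.45 to -2.05 up to day 10 and of -0.70 on day 50. Klk6 was also below it on all 7, with gaps of -1.02 to -4.17.

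Basal keratinocyte genes were less far from the control. Of 10 such genes, all well above background on every array, 3 were higher at 12 h, 5 on day 1, 4 on day 2, 5 on day 4 and 1 on day 6, and 4 were lower on day 10. Col17a1, a collagen that anchors basal cells, was 2.43 above the control on day 1, with a difference of -2.24 on day 10. Krt14, a basal keratin, was highest on day 1 (2.84), and Krt15, a keratin of basal and follicle stem cells, on day 4 (1.60) and lowest on day 10 (-2.30). The summed signal of the list was 52.6 in the control and 37.8 to 169 in plucked skin. Wound keratinocyte genes had another course, with 10 of 10 higher at 12 h and a median of 4.38. Within that list Krt6b, a stress keratin, was 5.16 above the control and the small proline-rich genes Sprr2d and Sprr1b 6.57 and 5.38 above it at 12 h. By day 6 the median of this list was -0.25, but the list was split. Klk5 and Klk7 were still more than 4-fold higher then (3.09-fold and 3.53-fold with normexp). On day 6, 3 of its 10 genes were still higher, Sprr1a (3.67), Krt17 (2.44) and Sprr2h (1.36), and 1, S100a9, was lower (-2.25). Sprr1a and Krt17 had their highest difference on day 4 (4.01 and 3.70). These 4 genes were named after their values were seen.

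Among genes of the junctions that the kallikreins cut, some were still high on day 10, when no kallikrein of the set was, and others were not. The list of 11 corneodesmosome genes also holds genes of desmosomes in general (Dsp, Pkp1, Jup and Perp) and of the cornified envelope (Evpl and Ppl). Of the 11, 7 were higher at 12 h, 8 on day 1, 6 on day 2, 8 on day 4, 10 on day 6 and 7 on day 10. None was past 2-fold on day 50 or lower at any time. The 7 on day 10 were Dsg1a, Dsg1c, Dsc1, Dsp, Pkp1, Perp and Evpl. The median difference of the list was highest on day 4 (3.23) and was 2.65 on day 6 and 1.05 on day 10. Dsg1a, which encodes the desmoglein 1 cut by KLK5 and KLK7, had levels of -2.82 in the control, -0.69 at 12 h, 0.33 on day 1, -0.71 on day 2, 1.99 on day 4, 1.26 on day 6, -0.86 on day 10 and -2.02 on day 50. It was thus 4.82 above the control on the log2 scale on day 4 and still 1.96 above it on day 10, where Klk5 and Klk7 were below theirs. Dsc1, the desmocollin of the same junctions, was too dim to pass the background test in the control and was at least 26.1-fold higher on day 4 and at least 6.74-fold higher on day 10. With normexp Dsc1 was 5.63-fold higher on day 4 and 2.12-fold higher on day 10. Of the other genes for cut proteins, Dsg1c was 2.37 above the control on day 10, Dsg1b 0.99 and Cdsn, which encodes corneodesmosin, -0.01, these 3 being named after their values were seen. Cdsn had differences of 0.77 at 12 h, 1.72 on day 1, 1.37 on day 4 and 1.17 on day 6. The plaque genes Dsp and Pkp1, which tie junctions to keratin, were 3.80 and 3.55 above the control on day 4. These junction proteins are also made in the hair follicle, and the part of the follicle in their levels was not tested.

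Of the 18 gene lists read beside the set, the hair list had the highest median from day 4 to day 10. Of 18 hair shaft and inner root sheath genes, all well above background on every array, 11 were higher at 12 h, 1 on day 1, 13 on day 2, 17 on day 4, 17 on day 6, 16 on day 10 and 10 on day 50, and none was lower. Their summed signal was 15.9 in the control, 41.9 at 12 h, 23.3 on day 1, 61.0 on day 2, 781 on day 4, 887 on day 6, 462 on day 10 and 28.4 on day 50. Krt25, Krt28, Krt33a and Krt35, keratins of the hair and its inner sheath, were 5.38 to 8.81 above the control on day 4. Of 8 outer root sheath and companion layer genes, 7 were higher on day 4, 5 on day 6 and 1 on day 10, and 3 were lower on day 10. In that list, the companion layer keratin Krt75 was at least 69.3-fold higher on day 4, and 16.2-fold higher with normexp. The stem cell genes Lhx2 and Lgr5 were 4.82 and 2.72 above the control on day 4, and Krt6a was highest at 12 h (2.76). The Klk10 and Klk13 maxima on day 4 coincided with these values, and the part of the follicle in them was not tested.

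Some sebaceous gland genes were lower on day 10, the array with the lowest Spink5 and Klk6. Of 10 sebocyte genes, 5 were higher on day 4 with 0 lower, and 4 were lower on day 10 with 0 higher and a list median of -0.48. The other 6 lay between -0.73 and 0.42 of the control on day 10. Far2, which makes wax alcohols, was at least 18.4-fold lower on day 10, and the sebaceous and duct genes Krt79, Awat1 and Dgat2l6 had differences of -2.49 to -2.59, Dgat2l6 with a value not well above background on day 10. With normexp Far2 was 4.43-fold lower on day 10, and in the mean over its probes its log2 difference was -2.97. The spike-in slope of the day 10 array was outside its accepted range per the file headers, and its part in the day 10 values was not tested.

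The arrays held the markers of the labelled tissue and of muscle. All 12 adipocyte genes and all 8 skeletal muscle genes were well above background on every array. The summed adipocyte signal was 1316 in the control and 727 to 1655 in plucked skin, with Lipe, Plin1, Cidec and Lep, genes of fat storage and leptin, between -1.51 and 1.07 of the control on the log2 scale. The median of the muscle genes lay between -0.21 and 0.08 up to day 10 and was 0.78 on day 50, when Actn3, Mylpf, Ckm and Myh1 were 0.78 to 1.27 above the control. Of 8 fibroblast genes, at most 2 were lower and at most 1 was higher at any time, and Lum had the lowest difference, -1.79 at 12 h. Macrophage genes were lower at every time in median, with 8 of 8 lower on day 4 (Cd68 at -1.90, Aif1 at -2.11, Emr1 at -1.79 and Fcgr1 at -1.62). Of 9 measured neutrophil genes, 3 were higher at 12 h, S100a8 at 4.49, S100a9 at 4.27 and Cxcr2 at 3.14. The remaining measured genes lay between -0.57 (Ltf) and 0.96 (Mpo), with Ly6g at -0.41, Elane at -0.06, Csf3r at 0.18 and Camp at 0.93. Ngp was not well above background at 12 h. The wound keratinocyte list shares S100a8 and S100a9 with this one, so the counts of both lists overlap.

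**Figure D3:**
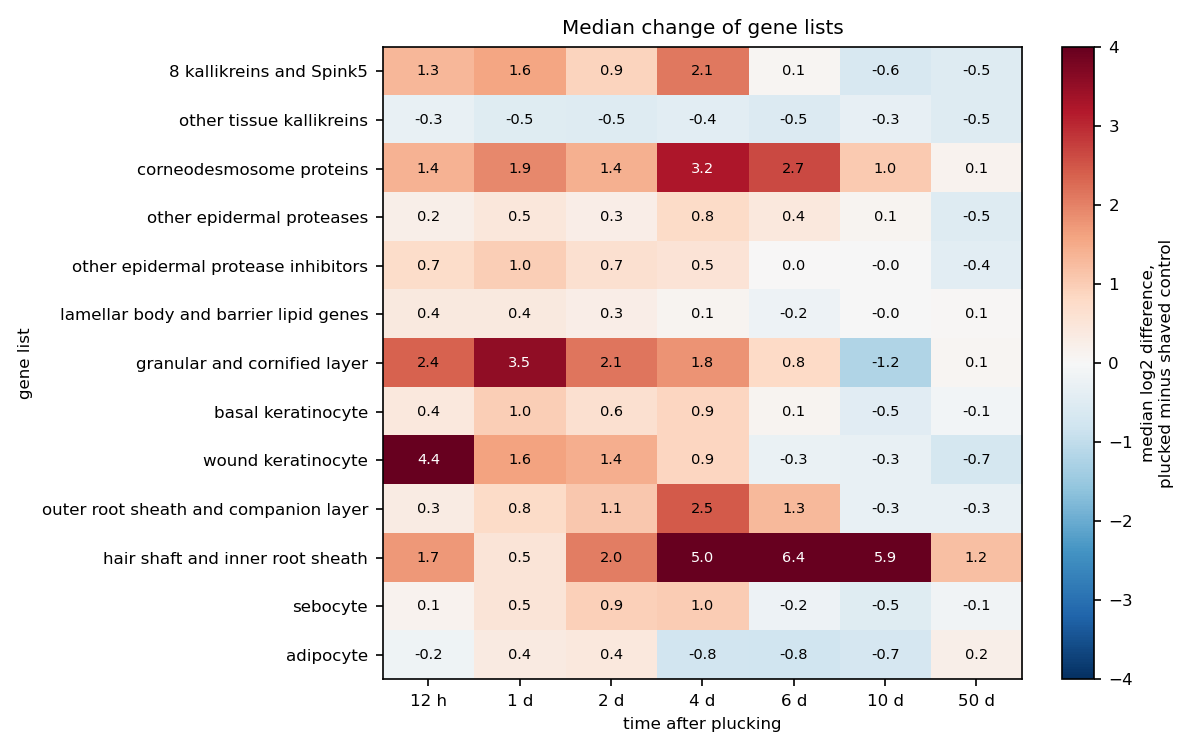
Median log2 difference from the shaved control (printed in each cell, colour stopping at 4 in either direction) for the 8 kallikreins with Spink5 and for 12 gene lists, by time after plucking. The kallikrein set was highest on day 4, the granular list on day 1, the wound list at 12 h and the hair list on day 6.

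Other proteases and inhibitors of the epidermis did not move as 1 group. Of 12 other epidermal proteases measured on day 4, 5 were higher and 1 lower, with a median of 0.77, and on day 50 none of 11 was past 2-fold. Asprv1, which encodes the protease that processes filaggrin, had a course like that of Klk5, with 2.69 at 12 h, 3.40 on day 1, 2.36 on day 2, 2.67 on day 4, 1.53 on day 6 and 0.46 on day 10. St14, which encodes matriptase, an activator of kallikrein precursors in mouse skin, was higher on day 4 (2.59) and day 6 (2.11) but not at 12 h (0.46). Tmprss13, a membrane serine protease, was higher on day 1 (1.92) and day 4 (1.54). Tmprss11f, of the same family, was too dim to pass the background test in the control and was at least 7.85-fold higher on day 6 (2.26-fold higher with normexp).

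Among 13 other epidermal protease inhibitors, the median was 0.72 at 12 h, 0.97 on day 1, 0.54 on day 4 and -0.42 on day 50. The cystatin-like Stfa1 and Stfa3, of a family with near-identical copies that can share hybridisation, were 8.21 and 4.33 above the control at 12 h. Serpinb5, which encodes maspin, was 4.01 above on day 4 and still 1.83 above on day 10. Cst6, which encodes cystatin M/E, an inhibitor of cathepsins and legumain in the cornifying epidermis, was 1.23 above on day 2 with -2.45 on day 10. Spink5 and Cst6 were thus both lowest on day 10, while Serpinb5 was not.

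Of the 12 other Spink genes listed, 11 were on the array, 7 were well above background on any array and 3 on all of them. Spink6, whose human product inhibits KLK5, KLK7 and KLK14, was too dim to pass the background test in the control and was at least 4.93-fold higher on day 4. Spink8 was at least 2.44-fold higher on day 4. With normexp neither was past 2-fold on day 4, at log2 differences of 1.00 and 0.46. Spink2 was lower at 12 h (-2.11), day 1 (-1.38), day 2 (-1.49), day 4 (-1.09) and day 50 (-1.72). Spink10 was well above background on 2 arrays only and is given no difference. The day 6 median of the Spink list was 0.34, and 0.00 with dim members at their bound.

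Lamellar body and barrier lipid genes, whose vesicles carry kallikreins and LEKTI to the cell surface, split within the list. All 12 were well above background on every array, and 4 were higher at 12 h and on day 1, 5 on day 2 and on day 4, and 2 on day 6, with median differences between -0.20 and 0.41. Abca12, the lipid transporter of lamellar bodies, was 2.60 above the control at 12 h and 3.02 on day 1. Lass3, a ceramide synthase, was 5.28 above on day 4, and 2.83 above in the mean over its probes. Aloxe3, a lipoxygenase of the barrier, was 2.71 above on day 1. Elovl4, which makes very long fatty acids, was 2.32 above on day 4 with -3.11 on day 10.

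The receptors and signals that kallikreins act on went in both directions. Of 8 such genes, 5 were well above background on all arrays, and 3 were higher and 1 lower at 12 h, when 7 were measured. F2rl1, which encodes the receptor PAR-2 that KLK5 and KLK14 cut, was too dim to pass the background test in the control and was at least 8.38-fold higher on day 4, at least 2.49-fold on day 6 and at least 2.02-fold on day 1. With normexp F2rl1 kept its call on day 4 (1.26) and lost it at 12 h (0.11), on day 1 (0.43) and on day 6 (0.09). Il1b, whose precursor skin proteases can process, was higher at 12 h (2.60) and on day 50 (1.64), with -0.54 to 0.53 between those times. Il1a was well above background on day 6 only, where it was at least 2.42-fold higher (0.43 on the log2 scale with normexp). Ccl22, a chemokine, was well above background at 12 h only, at least 1.99-fold higher (0.40 on the log2 scale with normexp).

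Along the chromosome, neighbouring kallikreins did not share 1 course. On GRCm38.p6 the genes run from Klk14 through Klk13, Klk12, Klk11, Klk10, Klk9, Klk8, Klk7, Klk6 and Klk5 to Klk4, Klk15 and Klk1. Klk5 and Klk7 stood higher up to day 6, while Klk6, which lies between them, was lower from day 6. Klk9, a neighbour of Klk8 and Klk10, had differences of 1.96 at 12 h, 1.87 on day 1, 1.01 on day 2, 0.38 on day 4, -0.27 on day 6, -0.41 on day 10 and -0.41 on day 50. Klk12 and Klk4, taken for their place in the cluster and not by the rule for named genes, lay between -0.51 and 0.22 of the control on all 7 plucked arrays. Klk15 was well above background only on day 6. Of 18 other tissue kallikreins, 13 were well above background on all arrays, 1 was higher at 12 h and 1 lower, and on day 4, of 17 measured, 1 was higher and 5 were lower. Klk1b11, of the mouse Klk1b genes that are near-identical and can share hybridisation, was lower on all 7 plucked arrays, with differences of -1.26 to -2.59, of which those on day 4 and day 6 alone stayed past 2-fold with normexp (-1.07 and -1.03), and Klk1b1 was well above background only on day 4.

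**Figure D4:**
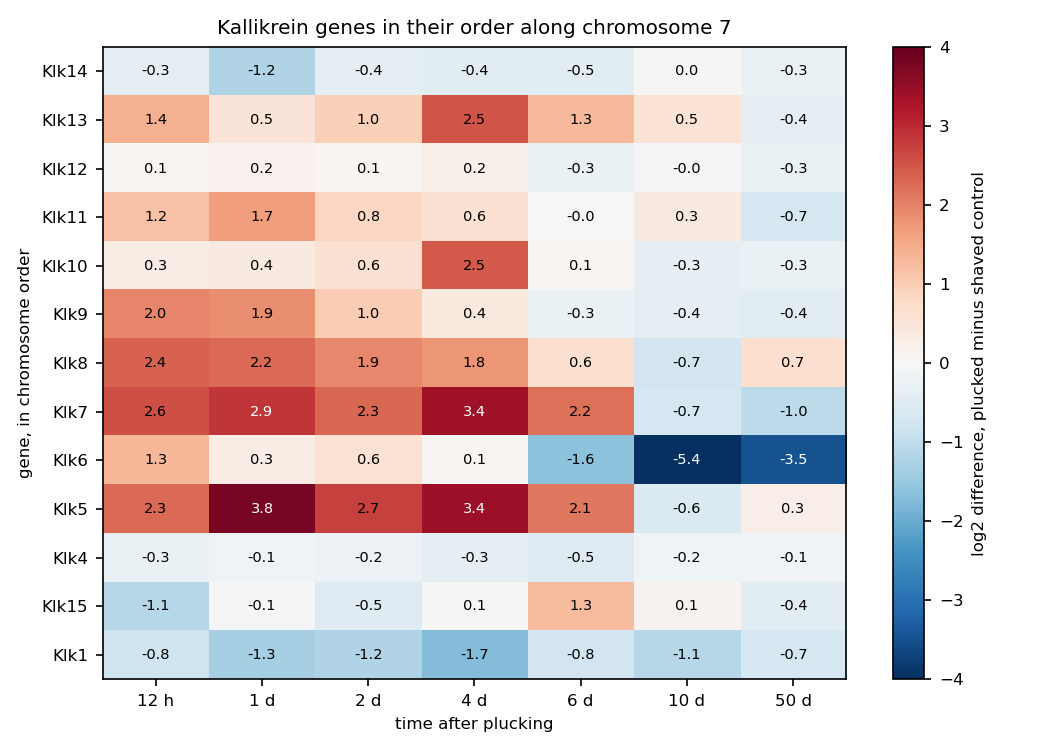
Log2 difference from the shaved control for 13 kallikrein genes in their order along chromosome 7 (rows), by time after plucking (columns), with colour stopping at 4 in either direction. Klk5 and Klk7 were high from 12 h to day 6 and Klk6 between them was low from day 6. The Klk14 and Klk15 rows are mostly from values not well above background, as are Klk6 on day 10 and Klk13 on day 50.

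Likeness was measured as the root mean square gap in log2 units between 2 genes' levels over the 8 arrays, after each gene's own mean was taken off. It is a description over 8 arrays that share 1 slide. Among the 15 pairs of the 6 members that were well above background on all arrays, Klk5 and Klk7 were the closest (0.52), followed by Klk8 and Spink5 (0.57). Klk5 and Klk8 had a gap of 0.78, Klk5 and Spink5 of 0.98, and Klk7 and Spink5 of 1.17. The widest gap was that of Klk7 and Klk11 (1.23). The gap of Spink5 to Klk8 was thus narrower than its gaps to Klk5, Klk7, Klk10 and Klk11.

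**Figure D5:**
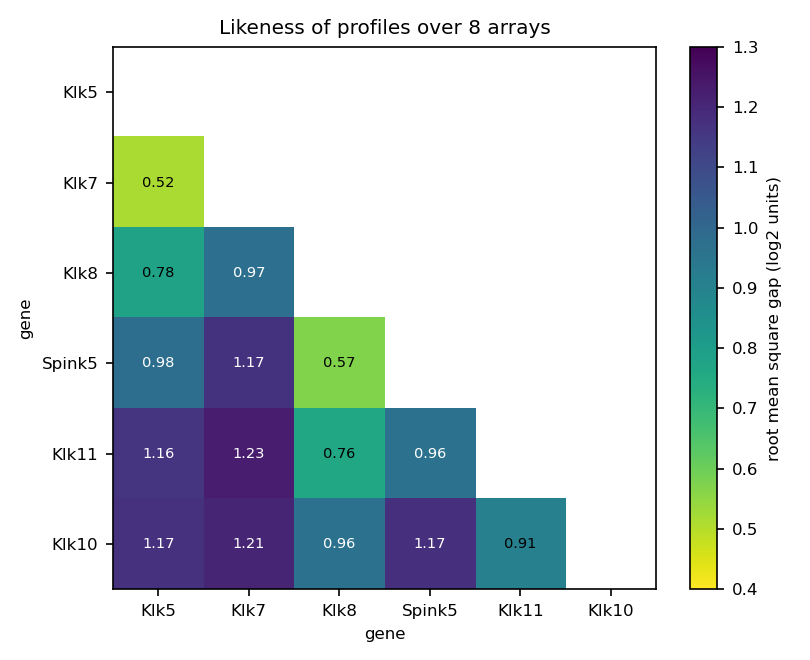
Root mean square gap (log2 units) between the profiles of 6 genes over the 8 arrays, each gene centred on its own mean. A smaller value is a closer match, and Klk5 with Klk7 (0.52) and Klk8 with Spink5 (0.57) were the closest of 15 pairs.

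Over all 14315 candidate genes well above background on the 8 arrays, the 3 nearest to Klk5 were Dmkn (0.45), which encodes the epidermal secreted protein dermokine, Krt5 (0.46), a basal keratin, and Il1f5 (0.47), an antagonist of the interleukin-36 receptor. Krt5 (0.51) and Il1f5 (0.52) were also nearest to Klk7, with the transcription factor gene Bcl11b (0.60) after them. Il1f5 was 3.37 above the control at 12 h, 3.80 on day 1, 2.56 on day 2, 3.68 on day 4 and 2.87 on day 6, with 0.52 on day 10. Krt5 was 1.93 above at 12 h, 2.37 on day 1 and 2.79 on day 4, with -0.79 on day 10. Nearest to Klk8 were Degs2 (0.41), an enzyme of ceramide synthesis, Anxa8 (0.43), an annexin, and Ly6g6c (0.44). Spink5 was nearest to Col17a1 (0.34), Cst6 (0.44) and Ly6g6c (0.49).

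The genes nearest to Klk10 were Gli2 (0.28), a transcription factor of Hedgehog signalling, Rasal1 (0.31), which switches Ras off, and Fxyd3 (0.31), which regulates the sodium pump. On day 4 they were 1.96, 3.14 and 1.98 above the control, and on day 6 they lay between -0.30 and 0.44 of it. Klk11 was nearest to Cgref1 (0.27), Lhx9 (0.30) and Mst1 (0.31), the last of which encodes macrophage-stimulating protein. All 3 had their highest difference on day 1, with 1.09, 1.14 and 1.85. With normexp background correction none of the 3 genes nearest to Klk8 was kept, and 1 of 3 was kept for Klk7, Klk10 and Klk11. With quantile normalization 1 of 3 was kept for Klk8 and 2 of 3 for Klk10, Klk11 and Spink5.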

How the data were processed

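The authors' deposited files hold, per the file headers, 1 intensity for each spot of 8 one-colour arrays, as given by Agilent Feature Extraction 10.5.1.1 with background subtraction, spatial and multiplicative detrending and a surrogate value for dim spots. The headers record no normalization between arrays. The headers place probes on mm9, and with no mm9 annotation at hand the exon or UTR a probe lies in is not stated. The Klk5 probe lies on chromosome 7 at 51106492 to 51106551 and the Klk7 probe at 51071388 to 51071447 on that build. RefSeq tables on GRCm38.p6 gave promoters and gene order.

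Control and flagged spots were left out and repeat spots averaged, which left 55668 of 55681 probes. No spot was saturated. From the deposited intensities a log2 level was computed as log2 of the processed signal minus the array's 75th percentile. The brightest probe stood for a gene with several. A gene was measured at a time when it was well above background on at least 1 of the 2 arrays. Where the dimmer array gave no signal well above background, the fold is a bound, written as at least N-fold: the dim side was set to its own signal or, if higher, to the weakest signal of any probe that passed the background test on that array. Such a bound holds for the deposited background subtraction only, and normexp gave folds below several of the bounds. List medians use the dim array's own value unless said. The call rule and the likeness measure were run on simulated bright genes and recovered what was put in. The simulated shifts lay well past the 2-fold line and the noise was small, so this checks the code alone. It held no dim probes and no differences between mice. With 1 array a group no test was possible.

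Members and lists were chosen with earlier results of these data known, and the lists came from textbook knowledge. The rule for named genes took all 9 members, the 3 nearest genes by profile to each member well above background on all 8 arrays, and the 4 genes of each list with the largest range. The alternatives tried were quantile normalization, median centring, normexp with an offset of 50, no filter and a stricter filter on background, the mean over probes, and the day 50 array as the reference. Tables were made in Python 3.11.15 (pandas 2.3.3, numpy 2.4.6), and normexp was run in R 4.3.3 with limma 3.58.1.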

Additional observations from a re-analysis of the deposited data

How the results depend on the processing

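Quantile normalization and median centring moved none of the 58 measured member differences by more than their technical error. Normexp background correction moved 29 of 58 and reversed none. The mean over probes could not move them, because each member was read by 1 probe. Klk7 left the genes lower on day 50 with quantile normalization or normexp, so that 1 remained. With no filter on background, 1 member (Klk14, from dim values) was lower on day 1, and with both arrays required well above background, 1 was lower on day 10 because Klk6 could not be measured. Against the day 50 array, 41 of 50 member differences moved and Klk6 on day 6 reversed to 1.86. There 7 members were higher on day 2 (3.59% of all genes), 0 lower on day 6 (4.09%) and 1, Klk11, higher on day 10 (6.47%), where Klk6, Spink5 and Klk8 were lower (6.09%). Klk6 and Klk7, and to a smaller extent Klk11 and Spink5, are lower on day 50 than in the control, so this choice raises their other differences. Of 533 differences of other named genes, normexp moved 199, the mean over probes 56 and quantile normalization 4. Normexp reversed Spink6 at 12 h (-0.065) and on day 6 (-0.10) and Klk15 on day 6 (-0.27). The day 50 array as reference reversed Klk1b11 at 12 h and on days 6 and 10 (0.039, 0.34 and 0.52), Krt35 (-0.85 and -0.58) and Krt28 (-0.36 and -0.24) at 12 h and on day 2, Aif1 at 12 h (0.36), Spink2 on days 1, 2 and 4 (0.34, 0.23 and 0.63), Krt75 (-0.11) and Cd68 (0.12) on day 1 and Krt6a on day 10 (0.15). Over all genes, the 7 counts of higher genes ran from 737 to 1702 and of lower genes from 621 to 1910, but with normexp from 322 to 1071 and from 228 to 887. The share of higher genes among the calls on day 50 was 38.2%, and 47.6% with normexp. No paired analysis was possible because each group has 1 sample. With 1 array a condition, no replicate could be left out, and the dim Klk13 and Klk14 probes limit what their differences show.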
